A study of Mus musculus with 12 samples.

Results

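The circular RNAs described here are those whose back-splice ends lie in mouse genes of the ubiquitin system. Ubiquitin is a small protein that is attached to other proteins by a relay of enzymes. An activating enzyme passes it to a conjugating enzyme (E2, the Ube2 genes). A ligase (E3) then brings the E2 to the protein to be marked. Chains of ubiquitin can send a protein to the proteasome, and deubiquitinases, among them the ubiquitin-specific proteases (the Usp genes), take ubiquitin off again. A circular RNA (circRNA) is a closed loop made when the end of an exon, the splice donor, is joined backwards to an acceptor upstream, at the start of that exon or of one before it.

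A circRNA was counted as a member when it lay inside a protein-coding gene of the GENCODE M21 annotation whose name begins with Ube2, Ube3 or Ube4, or with Ubr, Usp, Rnf, Trim, Fbxl, Fbxo, Fbxw, Herc or Cul followed by a digit, and it had at least 1 end on an exon boundary of that gene. Rnf169 was left out. The rule uses names and positions only, and no measured level. It found 492 of the 16445 circRNAs in the deposited table (2.99%), from 119 host genes among the 346 protein-coding genes with such names (34.4%). Both ends lay on annotated exon boundaries of the host in 472 members and 1 end did in 20. The names are not proof of function. Usp6nl carries a Usp name but is a GTPase-activating protein for Rab proteins, and Ube2cbp, also called Ube3d, is a ligase-type gene and not an E2. In counts and sums by role both stand with the class of their name.

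The livers came from 12 mice of a strain labelled C57BL/8. Every mouse, controls included, had injections of 10% carbon tetrachloride (CCl4), which poisons the liver and produces fibrosis, at 10 µl per 10 g of body weight 2 times a week for 8 weeks. For the 6 Control mice no further treatment is listed. A further 6 (PZH) were given a Chinese patent medicine, Pien Tze Huang, at 25 mg/ml once a day from week 2 to week 8. No liver without CCl4 was analysed here, so the comparison is of PZH with no PZH in injured liver. Levels are SRPBM, which by its usual meaning is the number of junction-spanning reads scaled to the mapped reads of the library. They measure the back-splice junction only, and neither the exons inside the loop nor the linear mRNA or the protein of the host.

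Summed SRPBM over all circRNAs ranged from 28922 to 41080 per library, and the smallest value above 0 from 0.584 to 0.719. Control 2 had the lowest sum and the fewest circRNAs above 0 (3735), and Control 6 had the next lowest sum (30122). CircRNAs of hepatocyte marker genes (11 of 13 genes had one, albumin included) summed to 21.1 to 51.1 in PZH and 22.3 to 60.0 in Control. Macrophage marker circRNAs (3 of 8 genes) summed to 40.6 to 65.7 in PZH and 34.0 to 54.1 in Control, and endothelial ones (4 of 7 genes) to 1.70 to 13.3 and 10.3 to 17.0. Of the stellate cell and fibroblast markers only Reln (1 of 11 genes) had circRNAs, at 4.12 to 11.7 in PZH and 0 to 3.32 in Control. Leukocyte markers (Ptprc, 1 of 6 genes) were listed at 0 in all PZH libraries and reached 2.52 in Control. The part of these shifts in any result below was not tested. In bulk tissue, fewer cells of a type and less circRNA per cell cannot be told apart.

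The back-splice junctions of the most abundant members are what the sequencing reads spanned. The following 60 bases, read from the GENCODE M21 transcripts (GRCm38), cover 8 of them 5′ to 3′, with the last 30 bases of the donor exon in lower case and the first 30 of the acceptor exon in capitals. All 8 lie in coding exons. The pair from Ube2k has the same capitals, because both circRNAs start at exon 2.
Ube2k exons 2 to 6 (chr5:65565989-65594548, plus strand): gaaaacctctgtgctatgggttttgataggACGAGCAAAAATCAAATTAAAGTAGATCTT
Ube2g2 exons 2 to 3 (chr10:77630726-77630894, plus strand): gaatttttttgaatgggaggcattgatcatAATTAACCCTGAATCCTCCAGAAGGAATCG
Rnf214 exons 9 to 10 (chr9:45869179-45869544, minus strand): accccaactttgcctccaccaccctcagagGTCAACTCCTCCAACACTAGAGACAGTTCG
Usp3 exons 2 to 8 (chr9:66540062-66566903, minus strand): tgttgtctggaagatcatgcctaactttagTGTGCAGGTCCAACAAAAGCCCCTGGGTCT
Rnf214 exons 4 to 6 (chr9:45890804-45898491, minus strand): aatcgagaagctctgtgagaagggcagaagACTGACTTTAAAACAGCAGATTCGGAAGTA
Ube2k exons 2 to 4 (chr5:65565989-65581468, plus strand): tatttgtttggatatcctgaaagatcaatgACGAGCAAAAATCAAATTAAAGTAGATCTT
Herc2 exons 3 to 4 (chr7:56067984-56072430, plus strand): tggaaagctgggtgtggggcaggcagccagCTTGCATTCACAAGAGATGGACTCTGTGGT
Cul1 exons 5 to 7 (chr6:47501168-47502590, plus strand): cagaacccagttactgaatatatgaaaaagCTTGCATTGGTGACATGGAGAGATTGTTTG
The circRNA of Ube2g2 was the shortest member with both ends on exon boundaries, with 82 bases of exon in 2 exons of 36 and 46 bases and an intron of 87 bases between them. Its exons are shown whole, exon 2 in capitals and exon 3 in lower case, on the plus strand of chr10:77630726-77630894.
Ube2g2 exons 2 to 3, spliced: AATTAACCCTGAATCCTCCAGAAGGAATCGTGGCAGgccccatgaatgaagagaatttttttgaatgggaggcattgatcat
The circle is that sequence closed on itself if the intron is spliced out, which the junction reads do not show.

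Most members were scarce and a few were abundant. Of the 492 members, 200 were above 0 in a single library (40.7%, against 44.3% of the other circRNAs) and 47 were above 0 in all 12 (9.55%, against 6.53%). These 47 carried 74.2% of the members' summed SRPBM. The 8 most abundant carried 44.0%, and Ube2k exons 2 to 6 alone 13.6%. Members differed in the number of circles per host: 39 hosts had 1 circRNA, 67 had 2 to 9, and 13 had 10 or more. The hosts with the most were Usp34 (19), Rnf214 (15) and Rnf13 (15).

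Summed over all members, the group means differed by less than the spread between livers. The sum was 1366 ± 159 SRPBM in PZH (SD, n = 6; 1197 to 1582) and 1372 ± 234 in Control (SD, n = 6; 1026 to 1574). As a share of all circRNA signal it was 3.77% ± 0.107 with PZH and 3.88% ± 0.213 without (SD, n = 6 each). A PZH library had 166 ± 9.69 members above 0 and a Control library 162 ± 27.2 (SD, n = 6 each). The labels describe the samples of a group as separate mice.

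**Figure D1:**
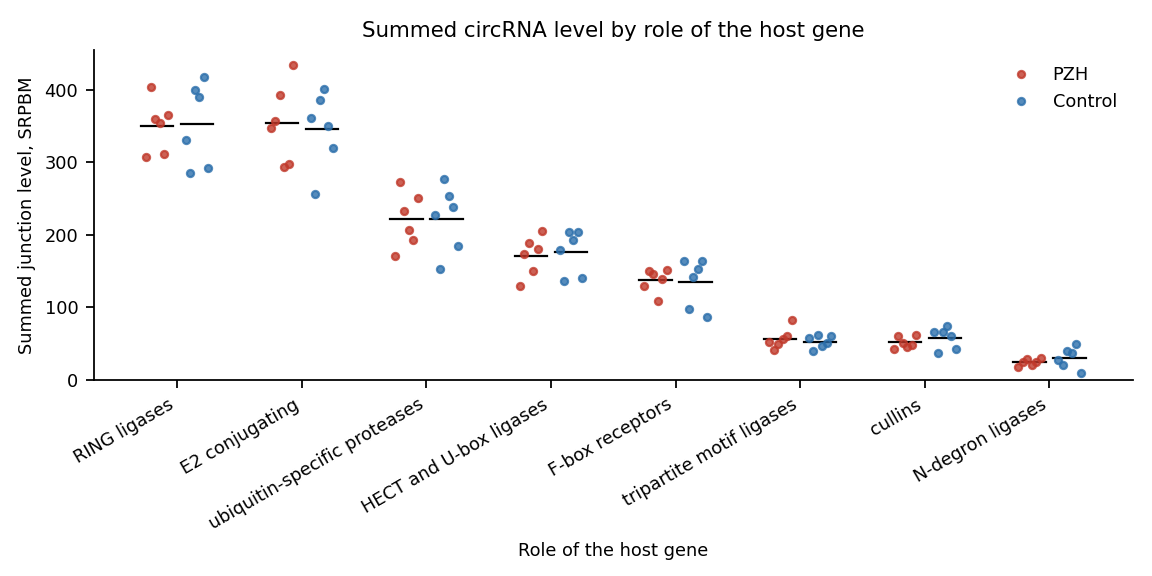
Summed SRPBM of the members (vertical axis) by the role of their host gene (horizontal axis), 1 point per library, PZH in red and Control in blue, with group means as black bars. In each of the 8 roles the points of the groups overlap; RING ligases and E2 enzymes hold the largest sums.

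The circles were not spread evenly over the enzyme classes. All 10 Ube3, Ube4 and Herc genes and all 6 Ubr genes had a circRNA, as did 7 of 8 cullins and 29 of 56 Usp genes. By contrast 10 of 37 Ube2 genes, 18 of 77 F-box genes and 12 of 68 Trim genes had one. By level, RING ligases (Rnf genes, 102 circRNAs) held 25.7% of the members' SRPBM and E2 enzymes (33 circRNAs) 25.5%. The Usp genes (140 circRNAs) held 16.2%, HECT and U-box ligases 12.7%, F-box genes 9.94%, Trim genes 4.01% and cullins 3.99%. The Ubr genes held 2.01% although they had 54 circRNAs.

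**Figure D2:**
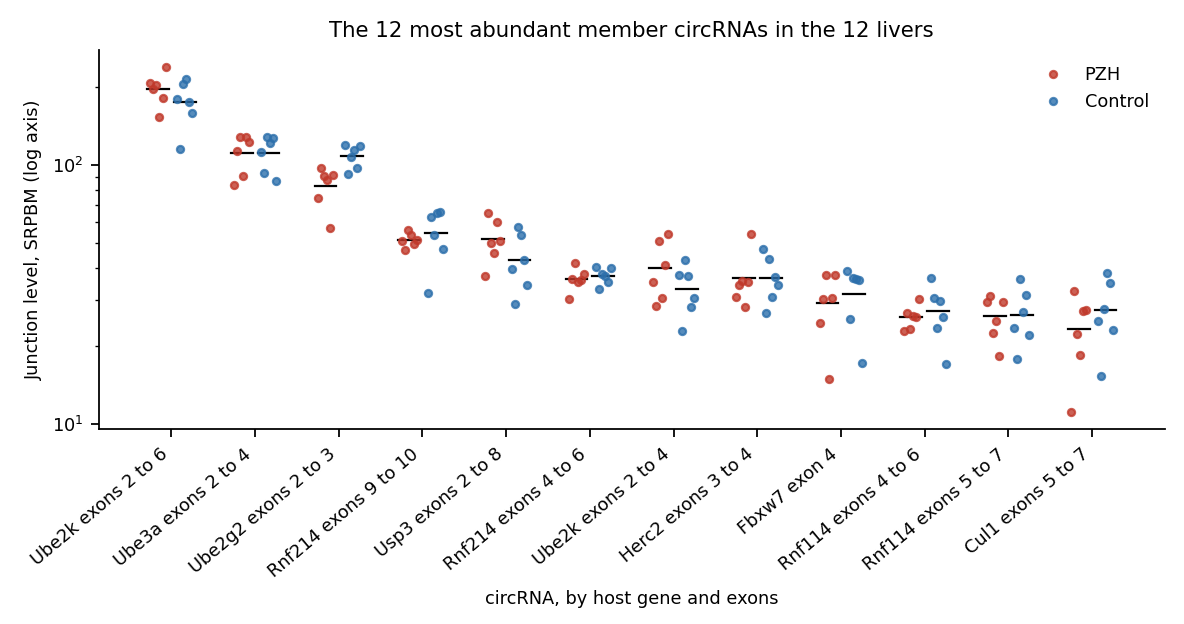
SRPBM on a log axis (vertical) of the 12 most abundant members (horizontal), 1 point per library, PZH in red and Control in blue, with arithmetic group means as black bars. Ube2k exons 2 to 6 lies highest in both groups, and of these 12 the circRNA of Ube2g2 has the group means farthest apart.

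The E2 enzymes gave the most abundant member. Ube2k makes ubiquitin chains of the kind that lead to the proteasome. Its circRNA of exons 2 to 6 ranked 13 among all 16445 circRNAs by mean level, and ranged from 153 to 238 SRPBM in PZH (median 201) and from 115 to 214 in Control (median 178). The groups overlapped over most of their range. The log2 fold change was 0.19 (SE 0.13, limma adjusted p = 0.751), PZH minus Control as in all that follow. The circRNA of exons 2 to 4 ranged from 28.4 to 54.0 in PZH (median 38.1) and from 22.7 to 42.9 in Control (median 34.0), again overlapping. Ube2k had 8 circRNAs built from exons 2 to 6 in different combinations, and the longest one carried 80.5% of their summed level.

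Ube2g2 is an E2 of the endoplasmic reticulum that serves the degradation of misfolded proteins. Its only circRNA ranged from 57.2 to 97.0 SRPBM in PZH (median 88.7) and from 92.5 to 120 in Control (median 111). Only PZH 2, at 97.0, lay above the 2 lowest Control libraries, Control 2 at 92.5 and Control 5 at 96.9, and the other 5 PZH libraries lay below all of Control. The PZH mean was 82.9 ± 14.7 and the Control mean 108 ± 11.3 (SD, n = 6 each), a log2 fold change of -0.39 (SE 0.13, 95% interval -0.67 to -0.12). This had the smallest unadjusted p of any member (0.00687 by limma), but it did not pass after adjustment over the 3870 circRNAs tested (adjusted p = 0.454). When circRNAs above 0 in any library were all tested the adjusted p was 0.0119, and over the 22 alternatives it ran from 0.0119 to 0.750. In that wider fit the log2 fold change of Ube2g2 was unchanged. The adjusted p of Ube2k exons 2 to 6 fell too, from 0.751 to 0.083 (limma). The variance trend was then drawn from all 16445 circRNAs, most of them at 0 in most libraries. Its part in the lower adjusted p was not tested. The exons of the Ube2g2 circRNA also belong to a second gene model on the same strand, Gm49325, so the host cannot be told apart.

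Ube2cbp had 6 circRNAs, and 5 of them share the donor end of exon 8, so they are not independent. The circRNA of exons 2 to 8 ranged from 3.38 to 6.83 SRPBM in PZH (median 4.16) and from 0 to 4.68 in Control (median 1.61), where 2 libraries were listed at 0. That of exons 4 to 8 ranged from 2.15 to 9.57 in PZH (median 5.00) and from 0 to 5.56 in Control (median 2.23). Both were mostly higher in PZH, with overlap, at log2 fold changes of 1.43 (SE 0.61, limma adjusted p = 0.601) and 1.21 (SE 0.57, adjusted p = 0.636).

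**Figure D3:**
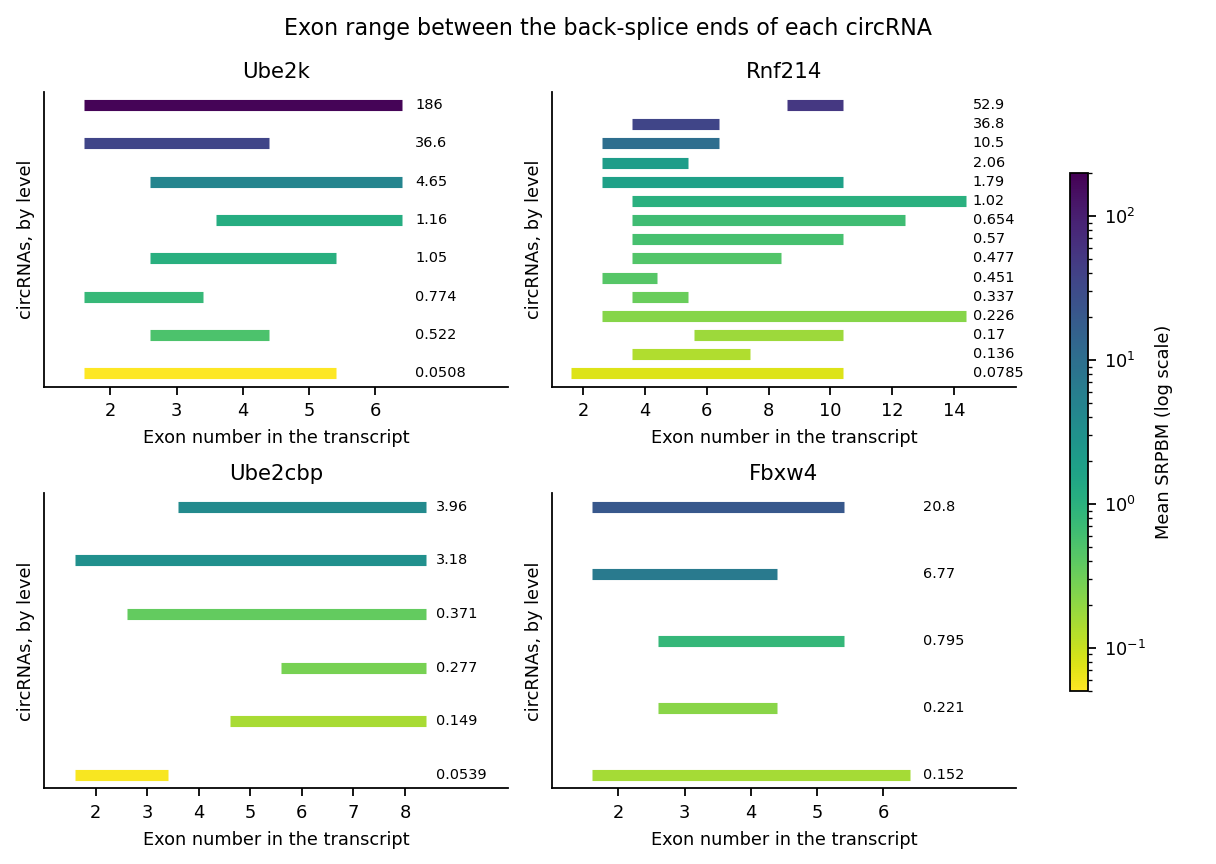
Exon range between the back-splice ends of each circRNA of Ube2k, Rnf214, Ube2cbp and Fbxw4 (horizontal axis, exon number in 1 GENCODE transcript), 1 bar per circRNA stacked by level, with the mean SRPBM over 12 libraries as colour and as the number at the right. In Ube2k 1 circle outweighs the rest, while Rnf214 has separate circles of exons 9 to 10 and 4 to 6; circRNAs with 1 end off an annotated exon boundary are not drawn.

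Among the HECT ligases, Ube3a, whose loss from the maternal allele causes Angelman syndrome, gave the second most abundant member. Its circRNA of exons 2 to 4 (chr7:59240967-59247217) ranged from 83.4 to 128 SRPBM in PZH (median 118) and from 86.3 to 128 in Control (median 117). The means were 111.0 and 111.2, and the log2 fold change was -0.01 (SE 0.14, 95% interval -0.29 to 0.28). That circle holds the start codon, and it made up 99.4% of the level of the 4 circRNAs of Ube3a. Herc2, a very large ligase that acts in DNA repair, had its main circRNA at exons 3 to 4. It ranged from 28.3 to 54.1 in PZH (median 34.9) and from 26.9 to 47.3 in Control (median 35.6), with PZH 6 standing apart at 54.1.

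Herc6, a ligase of the ubiquitin-like protein Isg15 in mice, had a scarce circRNA of exons 11 to 12. It was listed at 0 in 5 of 6 PZH libraries, with PZH 3 at 1.52, and above 0 in 5 of 6 Control libraries, up to 3.05. The log2 fold change was -1.29 (SE 0.54, limma adjusted p = 0.578), and a processed transcript on that strand, Gm45193, is another possible host. The 6 Ubr genes, whose proteins include readers of destabilising N-terminal residues, had no member above 0 in all 12 libraries. Their most abundant, Ubr3 exons 2 to 5, ranged from 1.33 to 6.15 in PZH (median 3.58) and from 0 to 7.63 in Control (median 4.11). Ubr3 exons 6 to 8 ranged from 0 to 5.07 in PZH (median 2.07) and from 2.26 to 6.07 in Control (median 4.81), a log2 fold change of -1.24 that did not pass (SE 0.63, adjusted p = 0.672).

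The RING ligases held the steadiest member. Rnf214 exons 4 to 6 ranged from 30.3 to 41.9 SRPBM in PZH (median 36.2) and from 33.2 to 40.4 in Control (median 37.6). Its coefficient of variation over the 12 livers was 8.66%, against a median of 31.5% over the 47 members above 0 in all libraries and 32.9% over other such circRNAs. Rnf214 exons 9 to 10 ranged from 46.8 to 56.2 in PZH (median 50.9) and from 32.1 to 65.7 in Control (median 58.3). The log2 fold changes were -0.04 (SE 0.14) and -0.05 (SE 0.16), both with an interval that held 0. A longer circRNA of Rnf214, exons 3 to 10, was above 0 in all 6 PZH libraries (1.22 to 3.09, median 2.56) and in 3 Control libraries (0 to 4.70, median 0.37), and its log2 fold change of 1.22 did not pass (SE 0.65, adjusted p = 0.685). Rnf13, a membrane ligase of endosomes and lysosomes, spread its 15 circRNAs over exons 2 to 8, and the most abundant held 27.2% of their sum. Rnf114 had 3 main circles, with means of 26.5 for exons 4 to 6, 26.1 for exons 5 to 7 and 14.1 for exons 5 to 6.

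Rnf168 adds ubiquitin to histones at DNA breaks. Its circRNA of exons 2 to 4 was above 0 in 3 of 6 PZH libraries (up to 2.89, median 0.45) and in all 6 Control libraries (1.89 to 4.56, median 3.33). PZH 2 and PZH 4 overlapped with Control, and the log2 fold change of -1.62 did not pass (SE 0.63, limma adjusted p = 0.566). Rnf149 exons 2 to 3 ranged from 1.30 to 5.78 in PZH (median 2.55) and from 3.84 to 8.96 in Control (median 5.11). That was the lowest log2 fold change of the 47 members above 0 in all libraries, at -0.89 (SE 0.44, adjusted p = 0.654). Rnf216, a ring-between-ring ligase, had members in both directions. Exons 8 to 9 ranged from 1.49 to 7.41 in PZH (median 4.34) and from 0 to 6.79 in Control (median 1.67). Control 2 and Control 6, the libraries with the lowest sums, were listed at 0. The log2 fold change was 1.21 (SE 0.66, limma adjusted p = 0.686). Exons 4 to 5 (chr5:143089743-143090758) ranged from 0 to 1.25 in PZH (median 0.33) and from 0 to 2.74 in Control (median 1.55), at -1.02 (SE 0.56, adjusted p = 0.686).

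Of the Trim ligases, Trim33, a regulator of Smad proteins downstream of TGF-beta, gave the most abundant member. Exons 2 to 4 ranged from 10.6 to 19.5 SRPBM in PZH (median 14.0) and from 6.37 to 17.7 in Control (median 13.6), with overlap and a log2 fold change of 0.15 (SE 0.26). Trim37, a ligase of peroxisomes and centrosomes, had a circRNA of exons 6 to 7 above 0 in 5 PZH libraries (up to 3.55) and in Control 5 alone of its group, at 2.63. Its log2 fold change of 1.09 did not pass (SE 0.57, limma adjusted p = 0.686).

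Cullins are scaffolds that hold a RING protein at one end and a substrate receptor, often an F-box protein, at the other. Cul1 is the scaffold that F-box proteins join. Its circRNA of exons 5 to 7 ranged from 11.1 to 32.4 in PZH (median 24.8) and from 15.3 to 38.4 in Control (median 26.3), with a log2 fold change of -0.25 (SE 0.26). Fbxw7, the receptor for cyclin E and Myc, formed a circle of the single exon 4, which holds a start codon. It ranged from 14.9 to 37.6 in PZH (median 30.4) and from 17.1 to 38.8 in Control (median 36.2). Fbxo8 exons 2 to 3 (means 18.6 and 19.7) and Fbxl17 exons 2 to 4 (means 5.74 and 6.52), the most abundant of their families, also overlapped between groups.

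Fbxw4 gave the highest positive fold change among the 47 members above 0 in all libraries. Exons 2 to 5 ranged from 15.1 to 32.3 SRPBM in PZH (median 26.3) and from 12.4 to 24.5 in Control (median 15.9). Of the 6 PZH libraries, 4 lay above all of Control and PZH 5 lay among the lowest Control values. The PZH mean was 24.8 ± 6.01 and the Control mean 16.9 ± 4.57 (SD, n = 6 each). The log2 fold change was 0.54 (SE 0.23, 95% interval 0.07 to 1.01), with a limma adjusted p = 0.578.

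Among the deubiquitinases, Usp3, which removes ubiquitin from histones, gave the most abundant circRNA. Exons 2 to 8 ranged from 37.1 to 65.3 SRPBM in PZH (median 50.5) and from 28.9 to 57.8 in Control (median 41.4), a log2 fold change of 0.28 (SE 0.18, limma adjusted p = 0.727). Usp12 exons 3 to 6 ranged from 3.63 to 7.99 in PZH (median 6.06) and from 0 to 7.55 in Control (median 3.25). Control 2 and Control 6 were listed at 0, and the log2 fold change of 1.34 did not pass (SE 0.62, adjusted p = 0.624). Usp10, which acts on p53 and in stress granules, had a circRNA of exons 2 to 4 above 0 in 2 PZH libraries (up to 2.47) and 5 Control libraries (up to 6.45). Its log2 fold change was -1.55 (SE 0.68, adjusted p = 0.612). Usp37 exons 19 to 21 was the 1 member listed at 0 in every library of a group and above 0 in at least 4 of the other. Its values in PZH were 3.06, 0.611, 1.94 and 1.55, with PZH 5 and PZH 6 at 0. The value in PZH 2 lay next to the smallest value above 0 in that library (0.610). With 4 libraries above 0 it did not enter the test. The same count over all circRNAs is not given here, so 1 member cannot be set against it.

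Usp34, a very large deubiquitinase, had most of its circRNAs in 1 library only (10 of 19). Its exons 9 to 10 circle, with a mean of 16.8, was listed at 0 in Control 2 alone. It ranged from 10.5 to 16.7 SRPBM in PZH and from 19.3 to 27.8 in the other Control libraries. Apart from Control 2, every Control library thus lay above every PZH library. This was seen only after the values were known, and the circRNA did not pass. Usp6nl had 14 circRNAs, of which 10 were tested, and the most abundant (11.2 ± 3.59 in PZH, 10.8 ± 3.06 in Control; SD, n = 6 each) ran from the acceptor of an annotated exon to an end off any annotated boundary.

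For the group comparison, limma was fitted to log2(SRPBM + 0.636) of the 3870 circRNAs above 0 in at least 6 of 12 libraries. Of the members, 135 could be tested and 357 could not. No member passed an adjusted p of 0.05. Over all circRNAs tested, 2 were called higher in PZH (0.0517%) and none lower (0%), and neither of the 2 was a member. At an unadjusted p under 0.05, 4 members were higher, against 176 of all circRNAs (4.55%), and 4 were lower, against 116 (3.00%). These 8 are the circRNAs of Fbxw4 (exons 2 to 5), Ube2cbp (both), Usp12, Ube2g2, Rnf168, Herc6 and Usp10 given above. The groups did not overlap in 26 of all circRNAs tested (0.672%) and in 0 of the members. By the exact rank-sum test, 0 circRNAs passed after adjustment. The smallest possible p of that test is 0.00216. Over 3870 tests this can pass only if many more than these 26 circRNAs separate fully, so that 0 carries no weight. Leaving out any 1 library left 0 members called by limma.

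**Figure D4:**
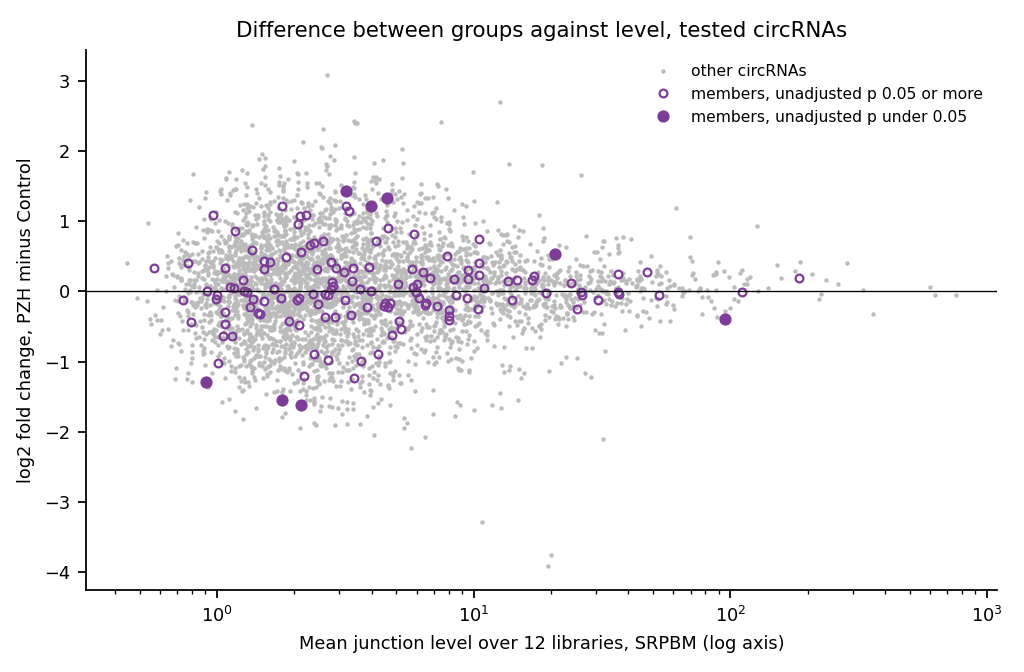
log2 fold change, PZH minus Control (vertical axis), against the mean SRPBM over 12 libraries on a log axis (horizontal), for the 3870 circRNAs tested. Grey points are other circRNAs, open circles the members and filled circles the 8 members with an unadjusted p under 0.05; the members lie within the cloud of the others, and their fold changes narrow as the level rises.

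In the fit reported here the members were balanced between the directions. Among the 135 tested, 67 had a positive and 68 a negative log2 fold change, with a median of -0.003. Over all 3870 the numbers were 2100 and 1770, with a median of 0.06. Of the 47 members above 0 in all libraries, 19 were positive and 28 negative, with a median of -0.03 (598 and 491, median 0.04, over all such circRNAs), and 43 lay within 0.5 of 0. By role, 9 of 13 tested E2 members and 7 of 9 Trim members were positive. CircRNAs of 1 host are not independent, and 6 of these E2 members came from Ube2k and 2 from Ube2cbp. The Trim members were 3 of Trim24, 3 of Trim37, 2 of Trim33 and 1 of Trim25. The counts were 19 of 44 for RING, 18 of 35 for Usp, 3 of 8 for HECT and U-box, 6 of 14 for F-box, 2 of 5 for cullins and 3 of 7 for Ubr members. No role had a called member. The split of the tested members moved with the setting. Without Control 2, 56 of 133 were positive (median -0.077), and without Control 4, 76 of 130 (median 0.058). With pseudocount 0.1, 74 of 135 were positive, and with pseudocount 5, 59 of 135.

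**Figure D5:**
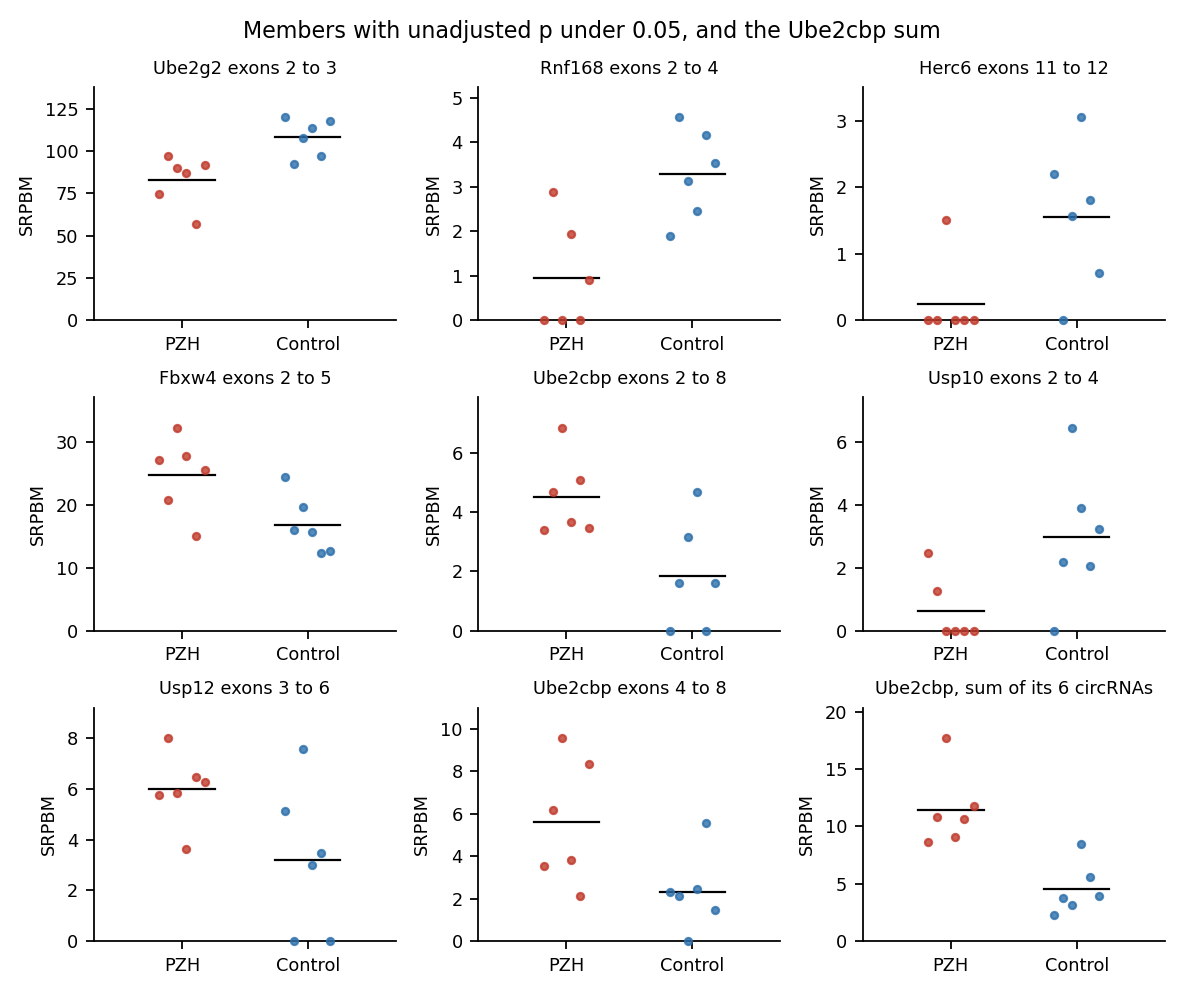
SRPBM (vertical axis, from 0) in each library by group (horizontal axis) for the 8 members with an unadjusted p under 0.05 and, last, for the sum of the 6 circRNAs of Ube2cbp, with group means as black bars. Every single circRNA has overlapping groups, while the Ube2cbp sum runs from 8.66 to 17.7 in PZH and from 2.32 to 8.45 in Control.

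The circRNAs of a host were also summed and compared as 1 value per gene. Of 2202 hosts tested, 0 passed by the exact rank-sum test. Its smallest possible p, 0.00216, can pass over so many hosts only if a large number separate fully, so that 0 carries no weight. By limma none passed (0%). Without PZH 5, 3 hosts passed by limma, none of them a member host. Among the 67 member hosts tested, 3 were higher at an unadjusted p under 0.05, against 112 of all hosts (5.09%), and 4 were lower, against 68 (3.09%). The positive and negative fold changes numbered 32 and 35. The smallest p among member hosts was that of Ube2cbp, whose 6 circRNAs summed to 8.66 to 17.7 in PZH (median 10.7) and 2.32 to 8.45 in Control (median 3.85). All 6 PZH livers lay above all 6 Control livers, with PZH 1 at 8.66 and Control 4 at 8.45 the nearest. The Reln circRNAs, at 4.12 to 11.7 in PZH and 0 to 3.32 in Control, were also higher in every PZH liver, and their part in this difference was not tested. The means were 11.5 ± 3.27 and 4.53 ± 2.20 (SD, n = 6 each), a log2 fold change of 1.29 (SE 0.40, limma adjusted p = 0.316). Rnf168, named here after its values were seen, was the other member host with groups that did not overlap, at 0 to 2.89 in PZH and 2.96 to 5.43 in Control (limma adjusted p = 0.598). Such a separation was found in 19 of all 2202 hosts (0.863%). The Usp34 sum ranged from 12.4 to 32.0 in PZH and from 4.32 to 35.6 in Control, the Rnf214 sum from 100.5 to 118 and from 85.1 to 125, and the Rnf13 sum from 29.5 to 42.0 and from 12.3 to 51.4, all with overlap.

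A ratio of a pair of circRNAs that share 1 end compares the use of the other end, and does not depend on how a library is scaled. Among members above 0 in all 12 libraries, 15 such pairs were tested by an exact permutation test over every way to draw 6 of the 12 libraries (2-sided), whose smallest possible p is 0.00216. None passed, and 0 had an unadjusted p under 0.05. The smallest p was 0.253 (adjusted 0.880, exact permutation test), for Ube2k exons 2 to 6 over exons 3 to 6, with a mean log2 ratio of 5.67 ± 0.79 with PZH and 5.20 ± 0.47 without (SD, n = 6 each). Fbxw4 exons 2 to 5 over exons 2 to 4 had 1.79 ± 0.78 and 1.44 ± 0.33 (p = 0.348, adjusted 0.880, exact permutation test, n = 6 each). Rnf149 exons 2 to 4 over exons 2 to 3 had 0.58 ± 1.22 and 0.12 ± 0.61 (p = 0.424, adjusted 0.880, exact permutation test, n = 6 each). The preference for the longer Ube2k circle over exons 2 to 4 was about equal in both groups, at 2.33 ± 0.30 and 2.40 ± 0.15 (p = 0.630, adjusted 0.880, exact permutation test, n = 6 each).

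Other genes of the pathway, none of them a member, had 499 circRNAs in 108 genes. Of the 123 tested, 65 were positive and 58 negative, 3 were higher and 5 lower at an unadjusted p under 0.05, and none passed. The largest of these was Nedd4l exons 3 to 5, from a ligase of ion channels, listed at 0 in 5 of 6 PZH libraries and in 1 of 6 Control libraries, at a log2 difference of -3.91 (SE 1.04, limma adjusted p = 0.363). Psma6 exons 2 to 5, from a proteasome subunit, was higher, at 6.38 ± 1.85 and 2.73 ± 1.51 (SD, n = 6 each; 1.14, SE 0.44, limma adjusted p = 0.566). It had the smallest log2 difference of the 3 higher ones. The proteasome and Vcp list had 1 circRNA higher and 1 lower at an unadjusted p under 0.05. By list, 20 of 35 circRNAs of other HECT and ring-between-ring ligases were positive, 14 of 19 of other deubiquitinases, 11 of 22 of the proteasome and Vcp, 8 of 20 of the SUMO pathway, 8 of 16 of cullin partners, 4 of 10 of other RING ligases and inhibitors of apoptosis, and 0 of 1 of the activating enzymes.

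The 472 members with both ends on exon boundaries resembled other circRNAs in build, with a median of 3 exons and a median spliced length of 403 bases (417 for the others). They started at exon 2 in 34.1% of cases against 25.0% of the others, and among circRNAs above 0 in all libraries in 47.8% against 34.8%. This share was 54.5% for E2 genes and was shared by 21 of 42 circRNAs of F-box genes. The median flanking introns were 5092 bases upstream and 2871.5 downstream, against 5678 and 4502.5. Median GC content was 45.2% against 47.4%. The donor exon ended in AG, the usual last bases of an exon, in 48.1% of members and 57.0% of others. Among the 410 wholly coding members, 151 had a length that is a multiple of 3 (36.8%, against 38.4% of others). An end was shared with another member by 365 of the 492 (74.2%), against 68.4% of other circRNAs. These shares are given as a description, since circRNAs of 1 host are not independent.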

How the data were processed

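CircRNA back-splice junctions were measured by RNA sequencing in 12 livers (6 PZH, 6 Control). The authors deposited 1 table of normalized signal values (SRPBM), 1 column per library. Per the submitters' processing notes, Trim Galore and STAR were used with GRCm38 (mm10). The circRNA caller, the software versions and the way SRPBM was computed were not given in the sources used here. Trizol extraction and a TruSeq RNA kit are named in the labels' protocols. The deposited values are no counts: the smallest value of a library came close to 2 equal steps, but only 56.8% to 63.8% of values up to 8.5 steps lay near a whole step (0.05 below to 0.1 above), so no reads were recovered, no count test was run and the depth per circRNA is not known exactly.

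Back-splice ends were matched to GENCODE M21 exon boundaries. limma 3.58.1 (R 4.3.3) with a variance trend was fitted to log2(SRPBM + 0.636), where 0.636 is the median, over libraries, of the smallest value above 0. CircRNAs above 0 in at least 6 of 12 libraries entered, all 12 libraries were used with no covariate, tests were 2-sided, and p-values were adjusted by Benjamini-Hochberg over all features tested. The added 0.636 draws the log2 fold change of scarce circRNAs towards 0. Libraries listed at 0 can instead make it larger than the ratio of the group means would give. The procedure was tested on simulated data. Host sums add all circRNAs of a gene with at least 1 matched end. Ratios of circRNAs sharing an end were tested by exact permutation (scipy 1.17.1).

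The named members are the 8 most abundant, the 7 with the smallest p in each direction, the most abundant of each gene family, both circRNAs of the 3 pairs with the smallest p, and those at 0 in 1 group and above 0 in at least 4 libraries of the other; the named hosts are the 3 with the most circRNAs and the smallest p in each direction. The members and lists were chosen with earlier results of these data known. Pseudocounts of 0.1 and 5, other filters, scalings and tests, zeros as missing, a replicate block and leaving out each library were tried. One marker list and 1 circRNA of another pathway gene are not reported here.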

Additional observations from a re-analysis of the deposited data

Results flagged for a closer look

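Of 81 groups of 6 libraries examined among the named members, hosts, ratios and sums, 7 had a library far from the rest by Dixon's test at its 95% critical value. Chance sets apart about 1 group in 20 when values are normal and groups independent. Many of these groups hold zeros and some share circRNAs, so 7 of 81 cannot be set against that rate. In the Trim37 and Herc6 groups all other libraries were at 0, so any value above 0 would be set apart. Herc2 exons 3 to 4 was 54.1 SRPBM in PZH 6, where the other PZH libraries were at 28.3 to 35.6. Rnf214 exons 3 to 10 was 4.70 in Control 3, with the others at 0 to 1.62. Trim37 exons 6 to 7 was 2.63 in Control 5 and 0 in the other Control libraries. Herc6 exons 11 to 12 was 1.52 in PZH 3 and 0 in the other PZH libraries. Members made up 3.57% of all SRPBM in PZH 4, against 3.75% to 3.85% in the other PZH libraries. The Usp34 host sum was 4.32 in Control 2, the library with the lowest summed SRPBM, against 28.1 to 35.6 in the other Control libraries. The Ube2cbp host sum was 17.7 in PZH 3, against 8.66 to 11.8 in the other PZH libraries.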

How the results depend on the processing

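Over the alternatives tried, none called a member except testing every circRNA above 0 in any library, which called 1 (Ube2g2, adjusted p = 0.0119 by limma). The log2 fold change of Ube2g2 in that fit was the same as reported, at -0.39. The count over all circRNAs, 2 as reported, was 4 with pseudocount 5 and 30 with no filter. It was 10 for circRNAs above 0 in all 12 libraries and 12 with zeros as missing. When 1 library was left out it was 1 to 3. By the exact rank-sum test it was 0, but the smallest possible p of that test (0.00216) leaves little room to pass. The count of host sums, 0 as reported, was 2 with pseudocount 5, 6 with no filter, 1 for sums above 0 in all 12 libraries, 1 with median-of-ratios scaling, 1 with equal summed SRPBM, 2 with zeros as missing, and 0 to 3 when 1 library was left out. Replicate numbers did not pair the samples (correlations of deviations from -0.12 to 0.03 over 1089 circRNAs, and 0 of 6 numbers had its own partner as the best). With the replicate number as a block, 1 circRNA, 2 host sums, 0 members and 0 ratios passed. Of 38 named results, 25 kept their direction throughout and 13 did not, and the cause was not tested. Ubr3 exons 2 to 5 (0.01 as reported) was -0.073 with pseudocount 5 and -0.51 with zeros as missing. The Usp34 host sum was -0.0084 with pseudocount 5. The Rnf214 host sum was -0.0015 with median-of-ratios scaling and -0.0076 with equal summed SRPBM. Leaving out 1 library moved the log2 fold change across 0 for Ube3a exons 2 to 4 (-0.076 to 0.072), Rnf214 exons 9 to 10 (-0.19 to 0.011), Rnf214 exons 4 to 6 (-0.085 to 0.0072), Herc2 exons 3 to 4 (-0.13 to 0.066), Fbxw7 exon 4 (-0.29 to 0.053), Fbxo8 exons 2 to 3 (-0.17 to 0.080), Trim33 exons 2 to 4 (-0.032 to 0.24), Fbxl17 exons 2 to 4 (-0.29 to 0.066), Ube2k exons 3 to 6 (-0.39 to 0.011), Ubr3 exons 2 to 5 (-0.51 to 0.23), and the host sums of Usp34 (-0.39 to 0.23), Rnf214 (-0.025 to 0.085) and Rnf13 (-0.096 to 0.30). The median standard error of a tested member was 0.61 in log2, which limits the size of difference that 6 livers a group could show.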
